A study of Mus musculus with 12 samples.

Results

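The genes of sterol synthesis, its regulation and the uptake and export of sterol were examined in sorted Schwann cells. The group held 31 of the 25700 genes of the count table and was defined by a list of gene symbols, matched through the mouse Ensembl identifier of each row. It comprised 8 genes of the mevalonate and isoprenoid steps, 3 of the squalene steps, 9 of the post-squalene steps, 6 regulators and 5 genes of uptake, transport and export, and all 31 passed the filter on low counts.

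RNA was sequenced from sciatic nerves at postnatal day 5 (P5), when myelination has started, of mice that carried 1 copy each of a Cre transgene, a YFP reporter switched on by Cre and a dsRed reporter active in all cells, on the C57bl/6J background. Every library shared this genotype and age, and no library lacked the reporters. Nerves were digested with enzymes, and eYFP-positive cells, those in which Cre had been active, were sorted by side scatter, a measure of granularity: the mSC gate took granular cells (enriched in myelinating Schwann cells), the nmSC gate the less granular ones (not myelinating at that time), and the allSC gate both. Each gate had 4 libraries, numbered by mouse, and each of the 4 mice contributed 1 library per gate; both sexes were used, but the labels do not tell which mouse was which.

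Cholesterol is made from acetyl-CoA through mevalonate and squalene to lanosterol, which is then trimmed and reduced to cholesterol. Myelin is rich in cholesterol, and Schwann cells make much of what their sheaths need. Srebf2 encodes the transcription factor SREBP2, which Scap escorts from the endoplasmic reticulum when sterol is scarce and the Insig proteins hold back when it is plentiful.

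The libraries held between 8180927 and 16918122 counted reads, so that 3 counts stood for 0.177 to 0.367 CPM (counts scaled to the same total in every library, here before normalization). The 6 myelinating markers summed to between 154402 and 211965 CPM in mSC and between 17890 and 20511 CPM in nmSC, and the 5 markers of immature or dividing cells to between 130 and 180 CPM and between 1299 and 1743 CPM, so the gates bore the markers of their names. Sox10, a Schwann cell transcription factor, did not separate them (log2 fold change 0.0034). The 10 macrophage markers summed to 18.1 to 26.5 CPM in mSC and 23.5 to 32.9 CPM in nmSC, with 1 of the 6 tested called lower in mSC (Cd68), where 20.2% of all tested genes were lower, and Aif1 at 0 in every mSC library. The 4 endothelial markers summed to 19.6 to 28.5 CPM in mSC and 6.06 to 11.5 CPM in nmSC. Most of that was Kdr, which was called higher in mSC (20.3 against 5.88 CPM on average), while Pecam1 was called lower (1.25 against 2.45 CPM) and Cdh5 was not called (0.428 against 1.03 CPM). The 3 adipocyte markers summed to at most 2.46 CPM in any library. The 5 fibroblast-like markers, nearly all of it Col1a1, summed to between 436 and 1034 CPM in mSC and between 2921 and 4099 CPM in nmSC. Of these, 1 was called lower in mSC and 4 were not called. Col1a1 averaged 787 CPM in mSC and 3418 CPM in nmSC, and Cd34 1.45 and 2.74 CPM. Pdgfra was level (2.34 and 2.34 CPM), and Dcn (12.8 and 8.47 CPM) and Lum (5.01 and 2.17 CPM) had the higher mean in mSC. The 3 smooth muscle and pericyte markers stayed under 8.83 CPM in every library. Of 10 genes known to respond to dissociation, 4 were called lower in mSC, 0 higher and 6 were not called. The sums of all 10 overlapped between the gates (2354 to 4327 CPM in mSC and 3322 to 4282 CPM in nmSC). Most of these sums was Fos, at 2267 CPM in mSC and 2144 CPM in nmSC on average. For 4 of the 10, every mSC library lay below every nmSC library (17.3% of all tested genes did so). Among them were Egr1 (103 against 394 CPM on average) and Ier2 (15.5 against 88.6 CPM). The part of these other cells and genes in the results was not tested.

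The promoters of 4 synthesis enzymes are shown first, 3 of enzymes that were higher in mSC and 1 of an enzyme that was not called, with the matches to short motifs in them. RefSeq promoters (GRCm38.p6, 250 bases before to 50 after the start site) were available for 26 of the 31 members, with 33 promoters in all, and not for Fdps, Fdft1, Sqle, Stard4 or Npc1. Motifs were searched on both strands, and none of them contains another. CCAAT, the box bound by the factor NF-Y, stood in the promoters of 16 of 17 synthesis enzymes (94.1%) and of 21 of 26 members (80.8%). Shares are by gene, counted where any promoter of the gene held the motif. CCAAT stood in 42.4% of the 13171 tested genes with a promoter in the table. It stood in 44.5% of the 1007 such genes called at least 2-fold higher in mSC than in nmSC. Over all 27025 genes with a promoter, tested or not, the share was 41.1%. GGGCGG, the Sp1 box, was found in 15 of 17 enzymes (88.2%) and in 58.1% of tested genes. Its share was 71.3% of those called at least 2-fold higher and 38.2% of all genes with a promoter. CACGTG, the E-box, was found in 3 of 17 enzymes (17.6%) and in 10.1% of tested genes. Its share was 12.8% of those called at least 2-fold higher and 8.09% of all genes with a promoter. TCACNCCAC, taken as the core of a sterol regulatory element, was found in 1.37% of tested genes. Its share was 2.38% of those called at least 2-fold higher and 1.44% of all genes with a promoter. Among the enzymes it was found in 1 of 17 (5.88%). That enzyme was Hmgcs1, where the match began 137 bases before the start site; no match says only that these letters were absent from these windows. These shares are descriptions, and no site was shown to be used.

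The 250 bases before the start site are given, 5′ to 3′ on the strand of the gene, for 3 enzymes whose RNA was much higher in mSC (Hmgcs1, Mvd and Sc5d) and for Ggps1, whose RNA was not. Capitals mark CCAAT or its complement ATTGG and, in Hmgcs1, the TCACNCCAC match. Apart from Hmgcs1, they were chosen after the values were seen. In GRCm38.p6 they lie at chr13:119690101-119690350 (Hmgcs1, plus strand), chr8:122443423-122443672 (Mvd, minus), chr9:42264301-42264550 (Sc5d, minus) and chr13:14063489-14063738 (Ggps1, minus).
Hmgcs1: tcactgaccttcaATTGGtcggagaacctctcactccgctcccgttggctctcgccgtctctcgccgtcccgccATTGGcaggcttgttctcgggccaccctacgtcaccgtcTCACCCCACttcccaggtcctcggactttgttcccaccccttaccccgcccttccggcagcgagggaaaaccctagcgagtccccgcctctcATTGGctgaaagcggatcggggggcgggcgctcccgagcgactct
Mvd: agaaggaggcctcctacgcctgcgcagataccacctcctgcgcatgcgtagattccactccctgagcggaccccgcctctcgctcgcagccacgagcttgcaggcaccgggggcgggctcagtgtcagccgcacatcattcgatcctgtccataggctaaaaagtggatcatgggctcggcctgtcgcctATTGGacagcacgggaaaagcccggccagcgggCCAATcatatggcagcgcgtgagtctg
Sc5d: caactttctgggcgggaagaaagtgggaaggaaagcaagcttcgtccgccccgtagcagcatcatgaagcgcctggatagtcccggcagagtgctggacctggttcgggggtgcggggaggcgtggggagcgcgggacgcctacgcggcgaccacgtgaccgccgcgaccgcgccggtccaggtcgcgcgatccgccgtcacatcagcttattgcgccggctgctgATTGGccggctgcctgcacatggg
Ggps1: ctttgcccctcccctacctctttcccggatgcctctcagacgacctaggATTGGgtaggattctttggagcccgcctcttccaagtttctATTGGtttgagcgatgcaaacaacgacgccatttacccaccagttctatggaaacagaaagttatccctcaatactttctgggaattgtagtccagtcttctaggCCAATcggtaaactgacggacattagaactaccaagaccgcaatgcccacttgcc
Hmgcs1 and Ggps1 each showed 3 CCAAT boxes in this stretch, Mvd 2 and Sc5d 1. The box stood in promoters of enzymes that were higher in mSC, such as Hmgcs1 (10.1-fold) and Lss (10.4-fold), and in that of Ggps1, which was not called, and Lbr, the 1 enzyme that was lower in mSC, carried 2 in its 300-base window, while Acat2, which was 8.78-fold higher, carried none.

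The central comparison asked how cells that had started to myelinate differed from those that had not. Of the 31 members, 26 were higher in mSC than in nmSC, 1 was lower and 4 were not called in the quasi-likelihood test of edgeR, with p-values adjusted by Benjamini and Hochberg over all 18597 tested genes and a threshold of 0.05. Among all tested genes 20.4% were called higher and 20.2% lower. At least 2-fold higher calls numbered 21 members, against 7.38% of all tested genes. Every mSC library lay above every nmSC library for 23 members (16.8% of all tested genes did so) and below for 1 (17.3%), and the gates overlapped for 7. The median log2 fold change was 2.15 over the members and 2.88 over the 20 synthesis enzymes, beside -0.16 over all tested genes. In bulk samples, fewer cells of a type and less RNA per cell cannot be told apart.

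The synthesis enzymes together took 1.23% to 1.37% of all counted reads in mSC, 0.822% to 0.869% in allSC and 0.258% to 0.287% in nmSC. Their normalized levels summed to 16192 ± 388 CPM (SD, n = 4) in mSC, 8438 ± 274 CPM in allSC and 2196 ± 112 CPM in nmSC. The sums of the gates were far apart, and within a gate they differed little between mice, even where single enzymes did. Within each mouse, the median log2 ratio of mSC to nmSC over the enzymes was 2.71, 2.74, 2.65 and 2.80 for mice 1 to 4.

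**Figure D1:**
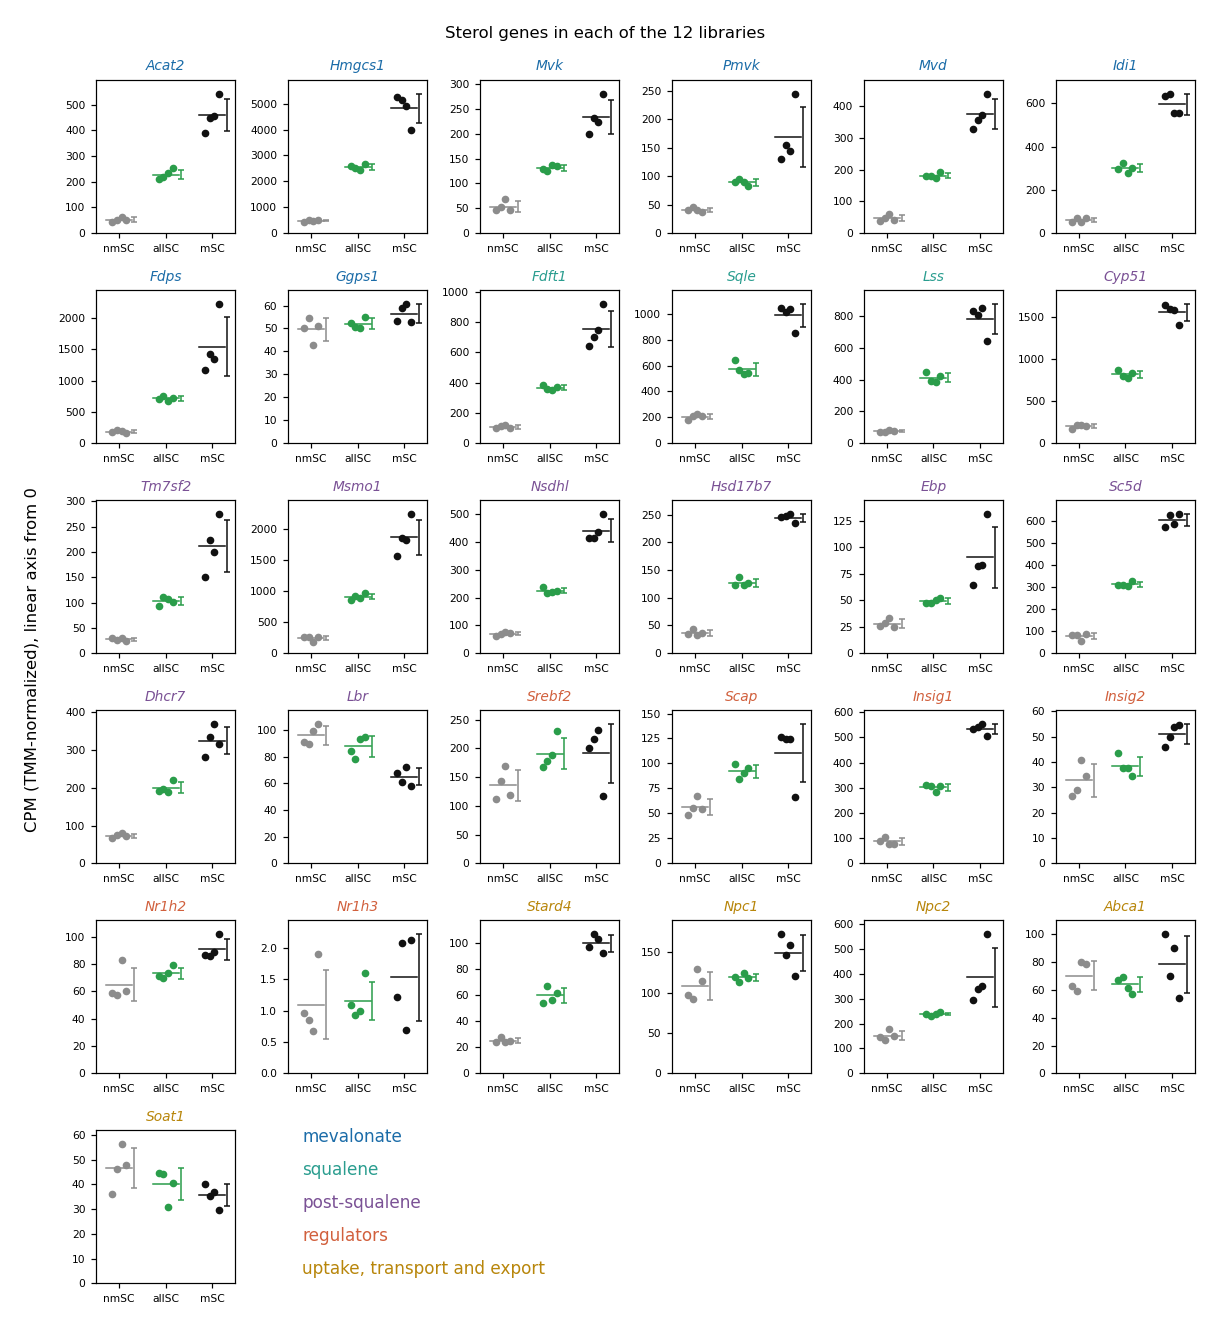
Normalized CPM (TMM, linear axis from 0) of the 31 members in each library, with 4 points per gate, the mean as a line and the SD as a bar, coloured by step. For 18 of the 20 synthesis enzymes the mSC points all lie above the allSC points and these above the nmSC points; Ggps1 is nearly level and Lbr runs the other way.

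Among the mevalonate genes, 7 of 8 were higher in mSC (20.4% of all tested genes were), with a median log2 fold change of 3.06. Hmgcs1 (ENSMUSG00000093930, chr13:119690379-119708260 in GRCm38, plus strand) encodes the cytosolic synthase that makes HMG-CoA. It stood at 5270, 5132, 4900 and 3996 CPM in mSC replicates 1 to 4, at 2577, 2528, 2420 and 2685 CPM in allSC and at 431, 492, 479 and 510 CPM in nmSC. The 3 gates did not overlap, and the lowest mSC library was mouse 4. The log2 fold change of mSC against nmSC was 3.33 ± 0.127 (SE, adjusted p = 6.77e-13, edgeR), a 10.1-fold difference. Acat2, the cytosolic thiolase that joins the first acetyl-CoA units, averaged 460 ± 63.1 CPM in mSC (SD, n = 4) and 52.2 ± 8.14 CPM in nmSC. Its log2 fold change was 3.13 ± 0.144 (SE).

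The kinases of mevalonate and phosphomevalonate had smaller log2 fold changes than Hmgcs1 and Mvd. Mvk averaged 234 ± 34.5 CPM in mSC and 52.7 ± 10.7 CPM in nmSC (log2 fold change 2.15 ± 0.148 SE), and Pmvk 168 ± 52.1 and 40.6 ± 3.61 CPM (2.05 ± 0.17). Mvd, the decarboxylase that forms isopentenyl diphosphate, averaged 375 ± 47 and 46.0 ± 9.66 CPM (3.02 ± 0.151), and Idi1, its isomerase, 597 ± 49 and 60.4 ± 9.3 CPM (3.30 ± 0.135). These differences between enzymes were not themselves tested.

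Fdps and Ggps1 act at the fork where isoprenoid units go to sterol or to protein prenylation. Fdps, which makes farnesyl diphosphate for both, stood at 1167, 1428, 1337 and 2230 CPM in mSC replicates 1 to 4, at 704, 760, 673 and 719 CPM in allSC and at 170, 201, 193 and 155 CPM in nmSC. The gates were apart, with mouse 4 both highest in mSC and lowest in nmSC, and the log2 fold change was 3.10 ± 0.176 (SE). Ggps1, which extends farnesyl to geranylgeranyl diphosphate and so leads away from sterol, stood at 53.1, 58.9, 60.9 and 53.0 CPM in mSC, at 52.4, 50.6, 50.2 and 55.2 CPM in allSC and at 50.1, 54.5, 42.8 and 51.2 CPM in nmSC. The 3 gates overlapped. Its log2 fold change of mSC against nmSC was 0.18, with a 95% interval from -0.05 to 0.42 and an adjusted p of 0.227 in the edgeR test. Ggps1 was thus the 1 mevalonate gene that was not called, and its direction turned under other scalings (-0.38 by library size alone, and called lower). Its exons also overlap those of Arid4b on the other strand, and whether reads were counted by strand is not given in the sources used here.

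All 3 squalene genes were higher in mSC, where 20.4% of all tested genes were. Lss (ENSMUSG00000033105, chr10:76531588-76557138 in GRCm38, plus strand) encodes the synthase that folds squalene epoxide into lanosterol. Its 4 mSC libraries stood at 835, 804, 850 and 642 CPM, those of allSC at 450, 390, 385 and 425 CPM and those of nmSC at 69.8, 72.1, 82.1 and 75.3 CPM. The gates were apart by a wide margin, and the log2 fold change of 3.38 ± 0.130 (SE, edgeR adjusted p = 6.77e-13) was the largest of the 31. Fdft1, which condenses farnesyl units to squalene, averaged 754 ± 120 CPM in mSC and 107 ± 10.8 CPM in nmSC (log2 fold change 2.82 ± 0.134 SE). Sqle, the epoxidase after it and a rate-limiting step of the pathway, averaged 988 ± 91.5 and 203 ± 18.7 CPM (2.28 ± 0.123). Exons of Lss and Fdft1, like those of Hmgcs1, Idi1, Cyp51, Scap and Npc1, overlap a gene on the other strand, and those of Fdps and Nr1h3 overlap one on the same strand, so their counts carry that uncertainty.

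**Figure D2:**
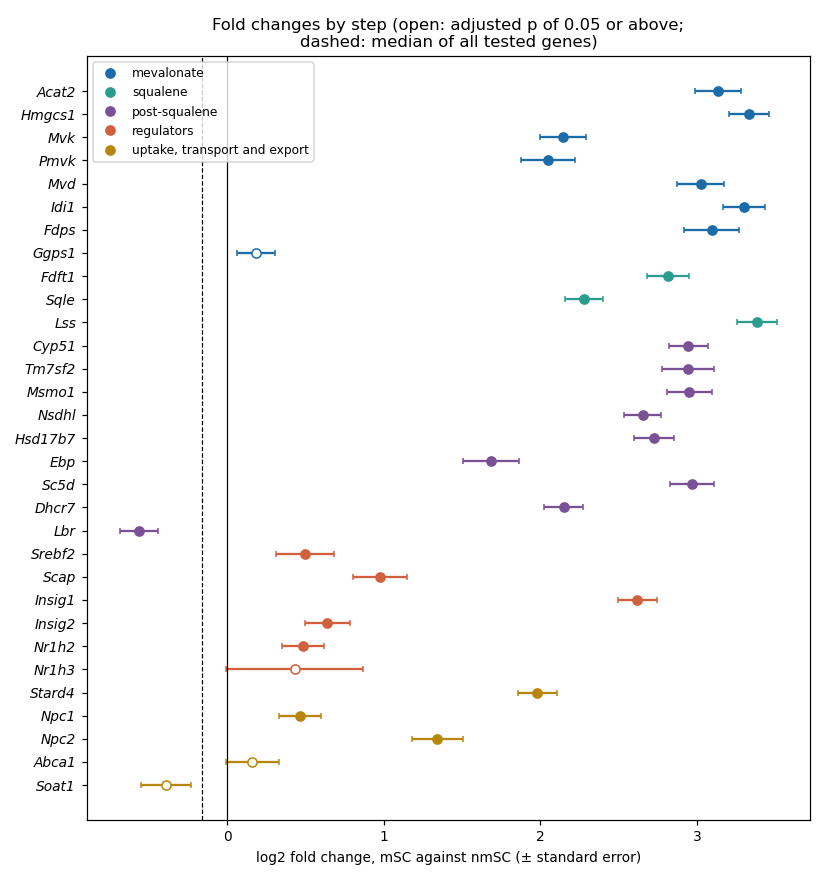
Log2 fold change of mSC against nmSC with its standard error (horizontal axis) for the 31 members, ordered and coloured by step, with open symbols for members that were not called and a dashed line at the median of all tested genes (-0.16). The synthesis enzymes other than Ggps1 and Lbr lie between 1.69 and 3.38, whereas 4 of the 6 regulators lie between 0.43 and 0.64.

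Post-squalene enzymes turn lanosterol into cholesterol, and 8 of 9 were higher in mSC while 1 was lower (20.4% and 20.2% of all tested genes). Cyp51, the lanosterol demethylase, averaged 1554 ± 102 CPM in mSC against 202 ± 24.2 CPM in nmSC (log2 fold change 2.94 ± 0.124 SE). Msmo1, Nsdhl and Hsd17b7 together remove the methyl groups at carbon 4. Their log2 fold changes were 2.95 ± 0.145, 2.65 ± 0.12 and 2.73 ± 0.125 (SE), from nmSC means of 241, 69.9 and 36.9 CPM to mSC means of 1871, 441 and 245 CPM. The 3 genes of this reaction series thus moved by similar amounts. Ebp, the isomerase that shifts the double bond of the ring, had the smallest difference of the enzymes called higher, with 64.7, 82.2, 83.6 and 132 CPM in mSC replicates 1 to 4 and 25.6, 28.5, 33.3 and 24.8 CPM in nmSC (log2 fold change 1.69 ± 0.18 SE). Sc5d and Dhcr7, the desaturase and a reductase of the last steps, had 2.97 ± 0.14 and 2.15 ± 0.122 (SE).

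Tm7sf2 and Lbr both encode sterol C14 reductases, and they went in opposite directions. Tm7sf2 stood at 150, 223, 200 and 276 CPM in mSC replicates 1 to 4, at 94.2, 112, 108 and 101 CPM in allSC and at 29.0, 26.3, 30.96 and 23.8 CPM in nmSC, with no overlap between the gates (log2 fold change 2.94 ± 0.167 SE). Lbr, which also encodes a receptor that ties lamin B and chromatin to the inner nuclear membrane, stood at 68.0, 61.3, 72.4 and 57.9 CPM in mSC, at 84.4, 78.4, 92.9 and 94.9 CPM in allSC and at 91.1, 89.3, 99.3 and 105 CPM in nmSC. Every mSC library was below every library of the other gates, and Lbr was lower in mSC than in nmSC in all 4 mice. Its log2 fold change was -0.57 ± 0.122 (SE, edgeR adjusted p = 0.00103).

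Per exon length (RPKM, the normalized CPM divided by the summed exon length in kilobases), the balance of the pair differed between the gates. Tm7sf2 stood at 2.39 to 5.15 times the RPKM of Lbr in mSC, at 1.15 to 1.54 times in allSC and at 0.246 to 0.345 times in nmSC. Lbr was therefore the more abundant C14 reductase RNA in every nmSC library and Tm7sf2 in every library of the other gates. The exons of Tm7sf2 overlap those of Vps51 on the same strand, and those of Lbr overlap Gm26004 on the same and Dnah14 on the other strand, so these ratios are uncertain to that extent.

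Compared per exon length, Hmgcs1 was the most abundant of the 31 in each gate, at a mean of 1050 RPKM in mSC, 556 in allSC and 104 in nmSC. Fdps and Cyp51 came next in mSC, at 366 and 352 RPKM, and did not differ beyond their spread between libraries. The lowest enzymes in mSC were Ggps1 at 11.96 RPKM and Lbr at 13.6 RPKM. In nmSC the lowest were Tm7sf2 at 6.26 RPKM, Lss at 6.94 RPKM and Hsd17b7 at 7.24 RPKM. By RPKM these enzymes of the sterol branch were thus above Ggps1 in mSC and below it (10.5 RPKM) in nmSC. For Lss the order in nmSC depends on the length used, 10787 bp of summed exons against 4721 bp for Ggps1. By CPM, Lss stood above Ggps1 in nmSC as well (74.8 against 49.6 CPM on average), and Tm7sf2 (27.5) and Hsd17b7 (36.9) below it.

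**Figure D3:**
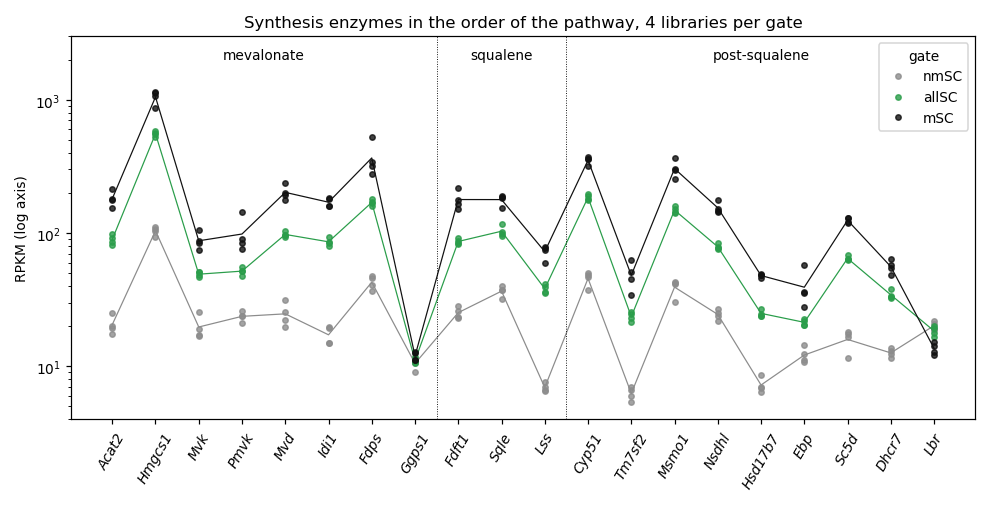
RPKM (log axis) of the 20 synthesis enzymes in pathway order, with 1 point per library, 4 libraries per gate and a line through each gate's means; dotted lines part the mevalonate, squalene and post-squalene steps. The points of the gates lie apart, mSC highest and nmSC lowest, except at Ggps1, where they overlap, and at Lbr, where the nmSC mean lies highest.

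Among the regulators, 5 of 6 were called higher, where 20.4% of all tested genes were, but only Insig1 by at least 2-fold. The regulators' median log2 fold change was 0.57, and Srebf2, Nr1h2 and Nr1h3 turned to below 0 under scaling by library size alone. Srebf2 stood at 201, 217, 231 and 117 CPM in mSC replicates 1 to 4, at 168, 177, 188 and 230 CPM in allSC and at 111, 142, 170 and 119 CPM in nmSC. The mSC library of mouse 4 lay among the nmSC libraries, and the other 3 mSC libraries lay above all nmSC libraries. The log2 fold change was 0.50 ± 0.184 (SE, edgeR adjusted p = 0.0385). A two-sided exact permutation test, which did not pair libraries by mouse, gave p = 0.143. The smallest p it allows for 4 against 4 unpaired libraries is 0.0286. Without that library the log2 fold change was 0.68 (edgeR adjusted p = 0.00036). Leaving out any of 5 other libraries ended the call, with edgeR adjusted p up to 0.115 (the lowest log2 fold change was 0.41, without mSC replicate 3). The call of Srebf2 was also lost by library size without the 50 top genes (0.15, edgeR adjusted p = 0.521). It was lost as well under a filter of 10 counts in 8 libraries (0.45, edgeR adjusted p = 0.0555). A model with only the 2 gates compared did not call it either (0.51, edgeR adjusted p = 0.0765).

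In Scap the library of mouse 4 was again the low one, with 127, 124, 125 and 66.9 CPM in mSC replicates 1 to 4 and 48.2, 55.2, 66.9 and 54.1 CPM in nmSC. It met the highest nmSC library, and the other 3 were close to each other. Its log2 fold change was 0.98 ± 0.173 (SE, edgeR adjusted p = 0.000155) and 1.16 without that library, and its call was lost by library size alone (0.43, edgeR adjusted p = 0.0506).

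The paralogs Insig1 and Insig2 were both higher in mSC, by unequal amounts. Insig1, itself a known target of SREBP2, stood at 532, 543, 554 and 505 CPM in mSC, at 310, 307, 282 and 307 CPM in allSC and at 89.1, 105, 77.1 and 75.2 CPM in nmSC. The gates were far apart (log2 fold change 2.62 ± 0.126 SE). Insig2 stood at 46.0, 49.96, 53.7 and 54.6 CPM in mSC, at 43.6, 37.8, 37.5 and 34.6 CPM in allSC and at 26.4, 29.0, 40.9 and 34.6 CPM in nmSC. Its mSC libraries were all above the others, while allSC and nmSC overlapped (log2 fold change of mSC against nmSC 0.64 ± 0.145 SE, edgeR adjusted p = 0.00166). Per exon length, Insig1 stood at 10.4 to 13.0 times Insig2 in mSC, at 8.001 to 9.98 times in allSC and at 2.12 to 4.07 times in nmSC, without overlap.

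The liver X receptors, which sense oxidized sterols and turn on export genes, were represented by Nr1h2 and Nr1h3. Nr1h2 averaged 90.8 ± 7.61 CPM in mSC and 64.9 ± 12.2 CPM in nmSC (log2 fold change 0.48 ± 0.134 SE, edgeR adjusted p = 0.00793). Nr1h3 had between 9 and 29 counts in each mSC and nmSC library, at 0.672 to 2.12 CPM, and was not called (log2 fold change 0.43, 95% interval from -0.43 to 1.28). A difference of the size seen for Nr1h2 was not detectable for Nr1h3 at this depth. The calls of Insig2 and Nr1h2 were lost under scaling by library size alone (log2 fold changes 0.08 and -0.09). They were also lost by library size without the 50 top genes (0.28 and 0.12, edgeR adjusted p = 0.0769 and 0.403).

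Of the 5 genes of uptake, transport and export, 3 were higher in mSC (20.4% of all tested genes were) and 2 were not called. Stard4, a carrier that moves cholesterol between membranes in the cytosol, stood at 96.6, 107, 103 and 91.8 CPM in mSC, at 54.2, 67.1, 56.0 and 61.4 CPM in allSC and at 24.3, 27.5, 24.0 and 24.9 CPM in nmSC. The gates were apart and the libraries of each were close together (log2 fold change 1.98 ± 0.124 SE). Npc1 and Npc2 hand cholesterol out of the lysosome. Npc2, the soluble partner, stood at 294, 339, 349 and 559 CPM in mSC replicates 1 to 4 and at 147, 136, 176 and 148 CPM in nmSC (log2 fold change 1.34 ± 0.163 SE). Mouse 4 lay well above the other mSC libraries, and without it the log2 fold change was 1.11. Npc1, the membrane partner, stood at 173, 146, 159 and 120 CPM in mSC and 97.6, 91.6, 129 and 114 CPM in nmSC, with overlap (log2 fold change 0.46 ± 0.136 SE, edgeR adjusted p = 0.0108). Under scaling by library size alone its sign turned (-0.09). By library size without the 50 top genes the call of Npc1 was lost (0.11, edgeR adjusted p = 0.476).

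An export gene and a storage gene were the members of this step that were not called. Abca1, the transporter that loads cholesterol onto lipoproteins, stood at 100, 69.8, 89.9 and 54.3 CPM in mSC, at 67.4, 69.6, 61.5 and 57.1 CPM in allSC and at 62.7, 59.5, 80.2 and 78.9 CPM in nmSC. The gates overlapped, and the log2 fold change of mSC against nmSC was 0.16 (95% interval from -0.17 to 0.49, edgeR adjusted p = 0.459). Soat1, which esterifies cholesterol for storage, stood at 40.2, 35.3, 37.0 and 29.7 CPM in mSC and 36.2, 46.4, 56.3 and 47.7 CPM in nmSC. Its log2 fold change was -0.39 (95% interval from -0.70 to -0.08), which missed the threshold after adjustment (edgeR adjusted p = 0.0539) but passed it in 5 of the alternatives.

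The allSC gate lay between the other gates for the mean of 30 of 31 members (69.4% of all tested genes did), with Abca1 as the exception. For the 21 members called at least 2-fold higher in mSC, allSC stood at a median of 43.4% of the way from nmSC to mSC on the CPM scale, from 34.1% (Ebp) to 50.2% (Dhcr7). Over the 1372 genes called so the median was 43.0%, with quartiles of 36.2% and 49.5%. The members thus lay where such genes lay in general.

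The comparisons with allSC share their libraries with the first one and are given beside it. The allSC gate also took the cells of both other gates, so for a gene that differs between those, a level in between follows from the sort. These comparisons are thus not independent of the first. Against allSC, 21 members were higher in mSC and 1 (Lbr) was lower, where 8.76% and 8.8% of all tested genes were, and the median log2 fold change was 0.83. From nmSC to allSC, 22 members were higher and 0 lower (7.54% and 2.83% of all tested genes), with a median of 1.45; the 0 lower held at an unadjusted p under 0.05 in edgeR and for DESeq2's Wald test. Every mSC library lay above every allSC library for 23 members and below for 1 (11% and 11.5% of all tested genes), and every allSC library above every nmSC library for 22 and below for 0 (12% and 7.3%). Calls of at least 2-fold numbered 6 members for mSC against allSC (0.737% of all tested genes) and 19 for allSC against nmSC (2.56%). The 18 enzymes that were higher in mSC than in nmSC were also higher in both steps, for example Hmgcs1 with log2 fold changes of 0.92 (mSC against allSC) and 2.42 (allSC against nmSC), Lss with 0.92 and 2.46, and Ebp with 0.87 and 0.81. Srebf2 was level between mSC and allSC (0.01, 95% interval from -0.35 to 0.37), and Insig2, Nr1h2 and Npc1 were called in neither step. The call of Lbr against allSC (log2 fold change -0.43, edgeR adjusted p = 0.0189) was lost without mSC replicate 2, allSC replicate 3 or allSC replicate 4 (-0.38, -0.40 and -0.37).

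Beyond the members, 47 other genes of sterol and isoprenoid metabolism were examined. Of these, 46 were in the table and 43 were tested. In mSC against nmSC 15 were higher, 3 were lower (Vldlr, Stard3 and Npc1l1) and 25 were not called, with a median log2 fold change of 0.16. Among all tested genes 20.4% were called higher and 20.2% lower, with a median of -0.16. Npc1l1 was low in both gates, at 1.18 CPM in mSC and 2.45 CPM in nmSC on average. The 8 with the lowest adjusted p were all higher. Aacs, which activates acetoacetate for sterol and fatty acid synthesis, had the largest difference (log2 fold change 3.01 ± 0.176 SE), and Erg28, a tether of the enzymes that act at carbon 4, had 1.93 ± 0.202. The prenylation subunits Rabggta (1.47 ± 0.115) and Fntb (1.12 ± 0.114), the oxysterol hydroxylase Cyp7b1 (1.21 ± 0.121), the lipoprotein receptor Scarb1 (1.18 ± 0.121) and the ubiquitin ligase Rnf145 (1.53 ± 0.16) were the others, with the sterol exporter Abcg1 (2.77 ± 0.271). Srebf1, the relative of Srebf2 that drives fatty acid genes, was not called (0.15 ± 0.207).

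Abcg1 differed from Abca1, its partner in export. It stood at 38.0, 38.1, 46.6 and 74.3 CPM in mSC, at 18.8, 22.4, 26.5 and 23.0 CPM in allSC and at 9.11, 6.20, 9.998 and 3.55 CPM in nmSC, with no overlap. Per exon length it stood at 0.538 to 1.95 times Abca1 in mSC, at 0.395 to 0.611 times in allSC and at 0.0640 to 0.206 times in nmSC. The mSC and allSC ranges of this ratio overlapped, and the nmSC range lay below both.

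**Figure D4:**
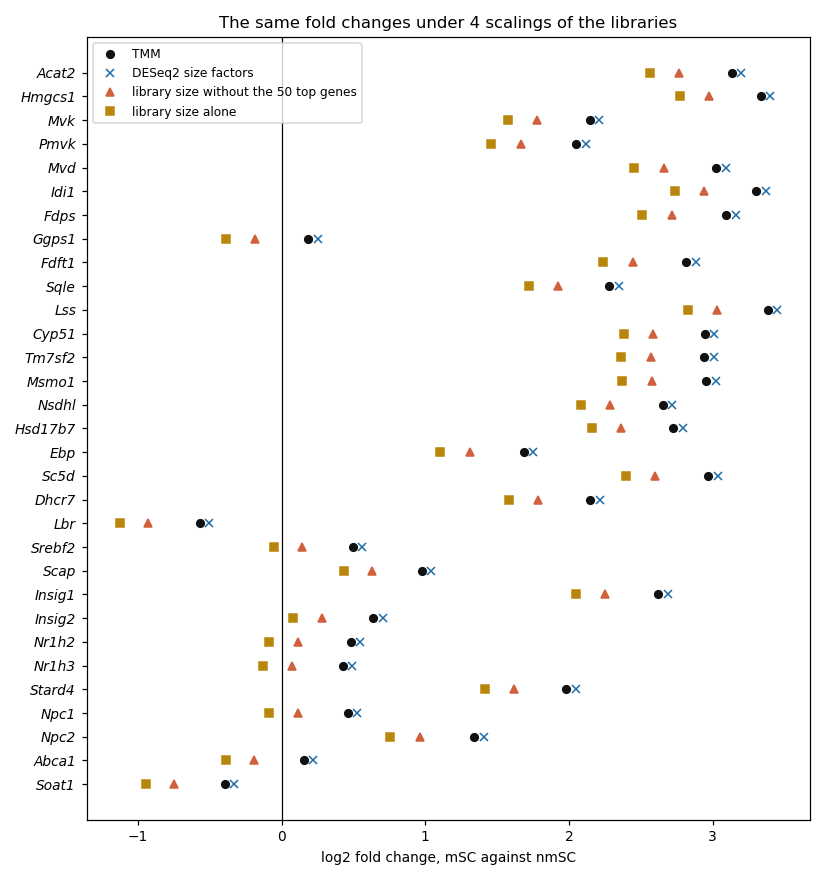
Log2 fold change of mSC against nmSC (horizontal axis) for each member under 4 scalings of the libraries, 1 symbol per scaling. The synthesis enzymes other than Ggps1 keep their side of 0 under all 4. Ggps1 and Abca1 fall below 0 by library size without the 50 top genes and by library size alone, and Srebf2, Nr1h2, Nr1h3 and Npc1 by library size alone, a scaling that moves the median of all tested genes by -0.56.

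The choice of scaling bore on the small differences. TMM factors were 0.744 to 0.871 in mSC and 1.16 to 1.28 in nmSC. Scaling by library size alone turned the split of all calls from 3792 higher and 3748 lower to 1443 higher and 10421 lower, and that of the members from 26 and 1 to 21 and 3. Measured from the median of all tested genes, a distance that another scaling leaves nearly as it is by construction, the members' median was 2.31, with 29 of 31 members above and Lbr and Soat1 below.

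The mSC library of mouse 4 stood apart from the other 3. It was the highest mSC library for 15 members and the lowest for 15, and the former had shorter summed exons (median 3354 bp) than the latter (5546 bp). Over all tested genes of at least 10 CPM in mSC, split by exon length, its median log2 difference from the other mSC libraries was 0.45 in the shortest genes, -0.07 in the middle ones and -0.19 in the longest. The part of this difference in the members' values was not tested. Without this library, 26 members were higher and 1 lower, the median log2 fold change of the synthesis enzymes was 2.78, and 24 members rather than 21 were higher than in allSC.

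**Figure D5:**
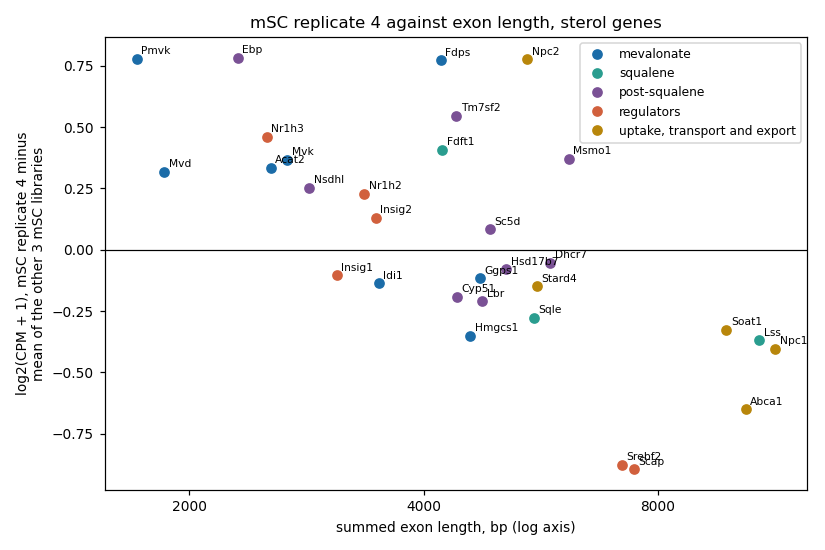
Log2 difference of the mSC library of mouse 4 from the mean of the other mSC libraries (vertical axis) against summed exon length (horizontal, log axis), 1 point per member, coloured by step. Short genes such as Pmvk and Ebp lie above 0 and most long ones, such as Scap and Srebf2, below.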

How the data were processed

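RNA of eYFP-positive Schwann cells was sequenced after Smart-Seq2 amplification in 12 libraries, 4 per gate. Reads were trimmed, mapped with STAR 2.6.1c and assigned to genes with featureCounts by the authors, and the deposited counts were not normalized. The submitters' processing notes name GRCm38.p5, the identifiers are those of mouse, and options for strand and multi-mapping reads are not given in the sources used here. Gene symbols, positions and summed exon lengths came from GENCODE (GRCm38), which matched 25664 of 25700 identifiers and all 31 members.

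From the counts, TMM-normalized CPM and RPKM were computed, and the 3 gates were compared by the quasi-likelihood test of edgeR 4.0.16 (R 4.3.3) in 1 model over the 12 libraries, after its filter on low counts by gate, with Benjamini-Hochberg adjustment over 18597 genes. Standard errors are those of the fitted log2 fold changes, and 95% intervals were not adjusted for multiple tests. Exact permutation tests used log2(CPM + 1). Neither they nor the main edgeR model paired the libraries by mouse. The fit was tested on simulated data with far fewer changed genes than here, a fixed spread and no mouse effect. That test does not bear on the choice of scaling.

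The members and lists were chosen with earlier results of these data known. All 31 members are named, and of the other sterol genes the 8 with the lowest adjusted p and any that were lower; Srebf1 was added after the values were seen. The labels give same-numbered libraries to the same mouse, so the numbers pair the samples; the correlation of their deviations from the gate means was between -0.225 and 0.246. No libraries of a gate were duplicates (chi-square per degree of freedom of at least 4.03). PCR copies were not told apart, so depth limits cover counting error only. The alternatives were DESeq2 1.42.0 (size factors, Wald test), library size with and without the 50 top genes, other filters, models with 2 gates only, a block for the mouse, and each library left out in turn.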

Additional observations from a re-analysis of the deposited data

Results flagged for a closer look

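Of 93 combinations of member and gate, 6 held a library whose gap to the other 3 exceeded Dixon's 95% limit for 4 values, where chance gives about 1 in 20. In mSC, replicate 4 was the one apart for Sqle (853 CPM, others 1015 to 1046), for Scap (66.9 CPM, others 124 to 127) and for Nr1h2 (102 CPM, others 86.1 to 88.7). In nmSC, replicate 3 was apart for Msmo1 (187 CPM, others 254 to 263) and for Nr1h2 (83.0 CPM, others 57.6 to 60.4). In allSC, replicate 3 was apart for Insig1 (282 CPM, others 307 to 310). The exon length profile of mSC replicate 4 is given above, and its part in these values was not tested. The nmSC library of mouse 3 was the highest of its gate for 19 of 31 members.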

How the results depend on the processing

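All of the 18 synthesis enzymes called higher in mSC than in nmSC kept that call under every alternative run. The number of members higher stayed between 21 and 26. The number lower was 1, and became 3 by library size alone (Lbr, Soat1 and Ggps1), 2 by library size without the 50 top genes, 2 under a filter of 10 counts in 8 libraries and 1 to 2 with 1 library left out, the second being Soat1. Against allSC, the 1 lower member became 2 by library size alone and 0 to 1 with a library left out, and the 0 lower in allSC than in nmSC became 1 by library size alone. The enzymes' median of 2.88 became 2.95 with DESeq2 size factors and with DESeq2's Wald test, 2.30 by library size alone, 2.51 without the 50 top genes and 2.78 to 2.92 with a library left out. The replicate block changed no count of members called (26 and 1 for mSC against nmSC, 21 and 1 against allSC, 22 and 0 for allSC against nmSC), and no member's call in any of these comparisons. Over all tested genes the replicate block called 7173 in place of 7540, 2899 in place of 3266 and 1774 in place of 1928.

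Signs turned only in small differences. For mSC against nmSC, library size alone gave Ggps1 -0.38, Srebf2 -0.051, Nr1h2 -0.086, Nr1h3 -0.13, Npc1 -0.086 and Abca1 -0.38, and leaving out the 50 top genes gave Ggps1 -0.18 and Abca1 -0.19. For mSC against allSC, library size alone gave Ggps1 -0.19, Srebf2 -0.28, Scap -0.028 and Nr1h2 -0.0082, and leaving out the 50 top genes Ggps1 -0.092 and Srebf2 -0.19; Srebf2 was also -0.014 under the stricter filter, -0.030 with only the gates compared, -0.024 with the replicate block and -0.062 to 0.21 with a library left out. For allSC against nmSC, library size alone gave Ggps1 -0.19, Insig2 -0.021, Nr1h2 -0.078, Nr1h3 -0.21 and Npc1 -0.12, leaving out the 50 top genes Ggps1 -0.091, Nr1h3 -0.10 and Npc1 -0.012, and leaving out a library Nr1h3 -0.14 to 0.48. These scalings moved the median of all tested genes by -0.56 and -0.36 for mSC against nmSC.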
